A study of Mus musculus with 2 samples.

Results

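The RNAs described here are 8 noncoding RNAs made by RNA polymerase III (pol III), the polymerase that transcribes short structured RNAs such as transfer RNA. They were chosen by gene symbol, as Rn7sk, Rn7s1, Rn7s2, Rmrp, Rpph1, Rny1, Rny3 and Vaultrc5, a rule that uses no measured value, though the symbols were picked with earlier results of these data known. They were proposed as abundant RNAs, which the counts below bear out for 5 of the 8. Rny1, Rny3 and Vaultrc5, the shortest, had at most 26 counts in either library. Whether RNAs this short were captured as well as the longer ones was not tested, so their abundance in the tissue is not known. The 8 symbols had 9 gene identifiers, since Rmrp had 2, of 55427 symbols and 55536 mouse gene identifiers in the tables. Total RNA was sequenced from the hippocampus, labelled as a layer of it, of male mice aged 36 days of the strain B6CASTF1/J, a first-generation hybrid of C57BL/6J and CAST/EiJ. There was 1 group with 2 libraries, given in the labels as biological replicates 1 and 2 and called libraries 1 and 2 here. Each was made from 300 ng of RNA, with spike-in RNAs of the External RNA Controls Consortium (ERCC) of a set for stranded libraries with ribosomal RNA reduced. The samples have different biosample records and the same donor identifier, and the labels do not state outright that they came from separate animals, so the tests below measure the difference between these libraries only. With 1 group, no comparison between conditions was possible. The questions the tables can answer are how abundant these RNAs were, how far the libraries differed, and how far the deposited tables of the same libraries differed.

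Pol III RNAs act mostly as the RNA part of small ribonucleoprotein machines. The 7SK RNA (Rn7sk) holds the transcription elongation kinase P-TEFb in an inactive complex, and the 7SL RNA (Rn7s1, Rn7s2) is the scaffold of the signal recognition particle (SRP), which brings ribosomes to the endoplasmic reticulum. Rpph1 is the catalytic RNA of RNase P, which cuts the 5′ leader from transfer RNA precursors, and Rmrp is the RNA of the related RNase MRP, which acts on ribosomal RNA precursors. The Y RNAs (Rny1, Rny3) bind the proteins Ro60 and La, and vault RNA (Vaultrc5) is part of the large cytoplasmic vault particle. Since these RNAs lack a poly(A) tail, they are seen in libraries made from total RNA rather than from poly(A)-selected RNA.

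Sequences of members on which the values turn are given here from the GENCODE M21 transcripts, on mm10, 5′ to 3′, because their length and their likeness to each other bear on how reads could be assigned. Rn7s1 and Rn7s2 on chromosome 12, each of 300 bases, were identical over their whole length. Rmrp had 2 overlapping gene models, a ribozyme of 271 bases (chr4:43492788-43493058, minus strand) and a long noncoding RNA of 281 bases (chr4:43492783-43493063, minus strand). The shorter model lay wholly inside the longer, and capitals mark the 5 bases before it and the 5 bases after it that only the longer had.
Rmrp longer model: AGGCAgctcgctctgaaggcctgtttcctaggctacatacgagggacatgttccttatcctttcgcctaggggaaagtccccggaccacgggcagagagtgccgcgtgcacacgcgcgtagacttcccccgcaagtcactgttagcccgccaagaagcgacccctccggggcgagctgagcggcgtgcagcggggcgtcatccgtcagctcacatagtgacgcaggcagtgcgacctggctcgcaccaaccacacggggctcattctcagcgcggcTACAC

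Rn7sk (chr9:78175303-78175633, minus strand, 331 bases) is shown over bases 32 to 331. The capitals mark its last 82 bases, 250 to 331, which none of the 12 other miscellaneous RNA entries with 90% identity over 100 bases covered. Rpph1 (chr14:50807449-50807767, minus strand, 319 bases) is shown over bases 167 to 238, where the capitals mark a direct repeat of 21 bases at 182 to 202 and again at 203 to 223. Rny1 (chr6:47788069-47788180, minus strand, 112 bases) and Rny3 (chr6:47781624-47781725, plus strand, 102 bases) are shown whole, with their terminal run of T in capitals. The 2 Y RNAs were identical at 81 of 112 aligned columns (72.3%). Vaultrc5 (143 bases) also ended in TTTT, which makes 3 of the 9 member transcripts, and Rn7sk, Rn7s1, Rn7s2, Rpph1 and both Rmrp models did not. Of 12572 annotated transcripts of at most 331 bases, 4.26% ended in these letters, read on the transcript's own strand. A run of T is the known pol III terminator, and a match of letters is only a description.
Rn7sk last bases: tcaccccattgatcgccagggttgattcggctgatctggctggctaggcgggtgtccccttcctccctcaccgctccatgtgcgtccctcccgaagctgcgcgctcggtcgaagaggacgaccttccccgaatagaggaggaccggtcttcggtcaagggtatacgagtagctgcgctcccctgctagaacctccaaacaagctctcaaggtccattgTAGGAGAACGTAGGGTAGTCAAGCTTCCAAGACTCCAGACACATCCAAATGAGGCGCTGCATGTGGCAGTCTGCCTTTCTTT
Rpph1 stretch: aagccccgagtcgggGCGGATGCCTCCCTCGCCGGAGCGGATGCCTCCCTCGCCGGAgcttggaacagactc
Rny1: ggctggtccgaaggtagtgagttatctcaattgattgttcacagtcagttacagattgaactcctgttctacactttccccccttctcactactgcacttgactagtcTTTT
Rny3: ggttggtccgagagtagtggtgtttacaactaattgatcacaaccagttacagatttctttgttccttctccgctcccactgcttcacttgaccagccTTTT

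The libraries held 28786216 and 29755033 expected counts in the authors' gene tables, of which ERCC RNAs took 0.421% and 0.408%. An expected count is a read count estimated per gene, so that a read that fits several genes is shared among them. Markers of hippocampal cells were present in both libraries, at a mean of 1380 TPM for Camk2a of excitatory neurons, 741 TPM for Slc1a2 of astrocytes, 726 TPM for Mbp of oligodendrocytes and 138 TPM for Gad1 of interneurons. Of 6 markers of other tissue, 2 were called apart between the libraries by the rule given below, both genes of the choroid plexus: Ttr had 81 counts in library 1 and 4202 in library 2, and Folr1 had 4 and 32. The summed level of these 6 markers was 257 TPM in library 1 and 379.9 TPM in library 2, and Ckm of muscle was at 0 in both. Ttr alone differed by more than this sum did, at 3.62 and 179 TPM. The blood markers went the other way, Hbb-bs from 128 TPM in library 1 to 97.5 in library 2 (adjusted p = 2.01e-08, exact binomial) and Hba-a1 from 121 to 96.0 TPM (adjusted p = 1.76e-07, exact binomial), both under 1.5-fold. Of the 7 hippocampal markers none was called apart, and Prox1 of dentate granule cells was nearest to it, 1.41-fold higher in library 2 (adjusted p = 1.79e-64, exact binomial).

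Together the 8 RNAs took 38.0% of all TPM in library 1 and 39.1% in library 2 (38.5% ± 0.818, SD, n = 2). TPM, a level relative to all transcripts and corrected for length, is the unit of the authors' gene table. The same RNAs took 5.57% and 5.82% of all expected counts, ERCC included (5.70% ± 0.179, SD, n = 2), so their share was far larger per length than per read. Since TPM sums to a fixed total, the TPM of every other transcript would be 1.61 times as high in library 1 and 1.64 times in library 2 with the 8 left out. In a bulk sample, fewer cells of a type and less RNA per cell cannot be told apart, so these are levels of the tissue.

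The 7SL pair led. Rn7s1 held 647036 expected counts in library 1 and 700111 in library 2, and Rn7s2 held exactly the same values. No read can tell identical sequences apart. Both libraries were at nearly the same level, 156549 and 161503 TPM for each gene (159026 ± 3503, SD, n = 2). Summed, the pair held 1294072 and 1400222 counts, 4.50% and 4.71% of all expected counts, and 31.3% and 32.3% of TPM. The 2 genes shared rank 1 of all genes by TPM and rank 3 by count. Their deposited posterior standard deviation, the authors' measure of how uncertain an estimated count is, was 3.12% of the count in library 1 and 1.70% in library 2. The split between Rn7s1 and Rn7s2 is therefore a property of the estimate, and only their sum is used as a level of 7SL RNA. Of the other miscellaneous RNA entries with a match to Rn7s1, 18 were counted, 5 of them with any count. They summed to 83.0 and 90.1 counts, 0.013% of the count of Rn7s1 alone, and a smaller share of the pair. Rn7s1 and Rn7s2 each overlapped 2 annotated microRNA entries on the same strand, Gm47287 and Gm47295, and Gm47299 and Gm47305, all listed at 0.

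Rn7sk came next among the members. It held 259724 counts in library 1 and 277692 in library 2, and 54443 and 55499 TPM (54971 ± 747, SD, n = 2), rank 3 by TPM and rank 7 by count. The posterior standard deviation was 3.97 and 3.38 counts, so the count of Rn7sk varied little within the authors' estimate. That measure does not cover error outside the estimate. The deposited credibility intervals of its TPM, 52491 to 52898 in library 1 and 53603 to 53999 in library 2, lay below the TPM given above. How many of its reads also fit another entry was not measured. The annotation held 179 other miscellaneous RNA entries that matched Rn7sk in part. Of these, 31 had any count, and all 179 summed to 203 counts in library 1 and 272 in library 2, 0.078% and 0.098% of Rn7sk. Rn7sk, Rny1, Rny3 and Vaultrc5 overlapped no other annotated gene.

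The RNAs of the tRNA and ribosomal RNA processing enzymes were lower and close to each other. Rpph1 held 32083 counts in library 1 and 35657 in library 2, and 7092 and 7515 TPM (7304 ± 299, SD, n = 2), rank 7 by TPM. Rmrp, summed over both models, held 17495 and 19186 counts, and 4805 and 5005 TPM (4905 ± 141, SD, n = 2), rank 12 by TPM. Every library was higher for Rpph1 than for Rmrp, with no overlap. Rpph1 overlapped Ccnb1ip1 on the same strand over 284 bases, 233 of them exonic, and Ccnb1ip1 held 2 and 2.32 counts. The ribozyme class of the annotation had 22 entries, of which Rpph1 and the shorter Rmrp model held 95.2% of the counts in both libraries. Most of the rest lay in Rprl3, an RNase P RNA-like entry with 94.1% identity to Rpph1 over its bases 1 to 204. Rprl3 held 2057 and 2189 counts, and the 17 ribozyme entries that matched Rpph1 summed to 6.43% and 6.15% of its count. How many of those reads came from Rpph1 was not tested.

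The estimated split of Rmrp between its models differed between the libraries. The shorter model held 8387 counts in library 1 and 7908 in library 2, and the longer model 9108 and 11278. The estimate was thus lower for the shorter model, and higher for the longer model, in library 2. For the shorter model the deposited credibility intervals overlapped, 2081 to 2530 TPM in library 1 and 1827 to 2288 TPM in library 2. A fall of this model is therefore not established. For the longer model they did not overlap, 2134 to 2559 TPM in library 1 and 2573 to 3013 TPM in library 2. The posterior standard deviation of either model was 407 counts in library 1 and 456 in library 2, between 4.04% and 5.77% of a model's count. Both model counts were fractional and their sum was whole in both libraries. The bases that differ between the models are the 10 in capitals above, and whether the ends of the RNA differed between the libraries was not tested. Rmrp also overlapped Ccdc107 on the opposite strand, with 124 bases in its exons. Ccdc107 held 162 and 145 counts, and the strand setting of the counting is not given in the sources used here.

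The shortest members were near or at 0 by count. Rny1 held 26 counts in library 1 and 24 in library 2 (exact Poisson 95% intervals 17.0 to 38.1 and 15.4 to 35.7), 0.907 and 0.810 CPM, the count relative to the library's total. Its level was nevertheless 97.3 and 85.6 TPM (91.4 ± 8.24, SD, n = 2), rank 998 by TPM and rank 15800 by count. Vaultrc5 held 3 and 2 counts (intervals 0.619 to 8.77 and 0.242 to 7.22), and 3.32 and 2.11 TPM. Rny3 held 0 counts in both libraries, which allows up to 3 counts (a one-sided limit, where the exact two-sided interval reaches 3.69), or 0.105 CPM in library 1 and 0.101 CPM in library 2. These intervals and limits cover counting error only, and not how well RNAs this short were captured. The tables also give a posterior mean TPM for Rny3, 15.7 and 14.98 at 0 counts, with deposited credibility intervals that reach 47.1 and 44.97 TPM. In order of TPM the members ran Rn7s1 with Rn7s2, Rn7sk, Rpph1, Rmrp, Rny1 and Vaultrc5, and the 2 libraries kept this order with no overlap between neighbours. The place of Rny3 is not known, since even 3 counts would give it 48.6 TPM in library 1 and 46.4 TPM in library 2, above Vaultrc5. The near copies of these RNAs in the annotation held no counts: Gm26168 and Gm26124, like Rny1, and Gm25403, like Vaultrc5, were at 0, as was Gm24105, like Rn7s1.

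**Figure D1:**
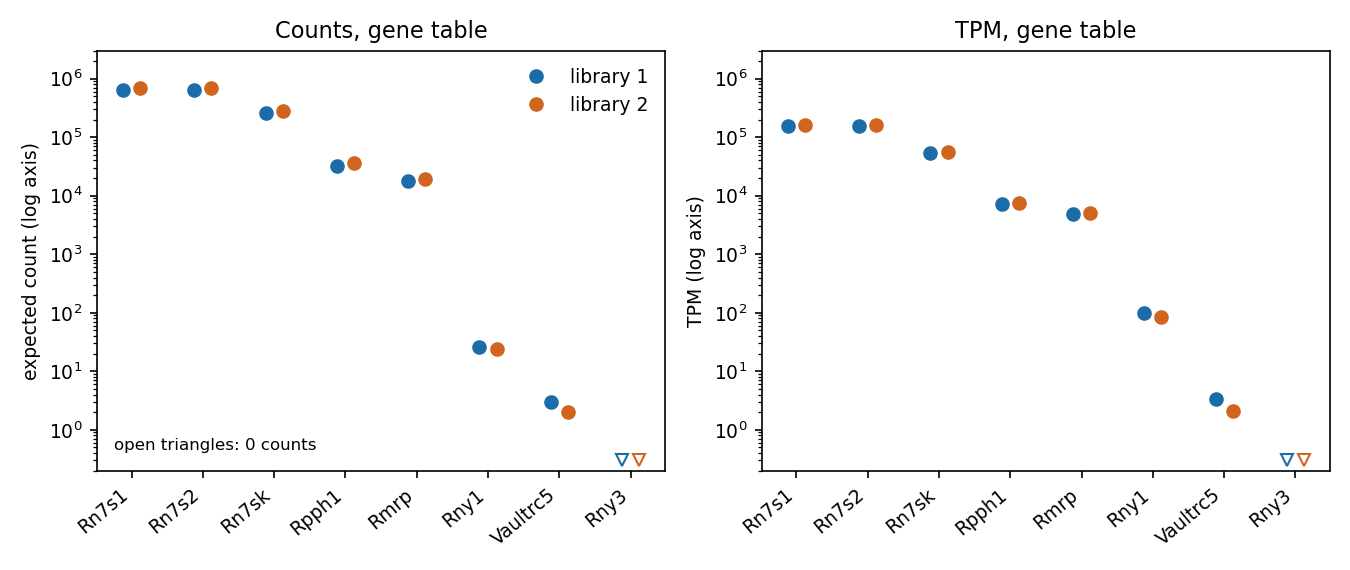
Expected counts (left) and TPM (right, both on log axes) of the 8 RNAs in the gene table, 1 point per library, ordered by mean TPM with open triangles for 0. The libraries lie almost on each other for each RNA, from Rn7s1 at 156549 and 161503 TPM down to Vaultrc5 at 3.32 and 2.11 TPM, and Rny3 is at 0.

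The TPM of these short RNAs depends on the length by which a count is divided. The gene table takes 99 bases off every transcript in both libraries, an effective length that leaves 232 bases of Rn7sk, 201 of Rn7s1, 13 of Rny1, 3 of Rny3 and 44 of Vaultrc5. One read was therefore worth 0.210 TPM for Rn7sk, 3.74 TPM for Rny1 and 16.2 TPM for Rny3 in library 1. Recomputed with the full length, Rny1 had a mean of 13.1 TPM in place of 91.4, a ratio of 6.96, and Vaultrc5 1.03 TPM in place of 2.71, a ratio of 2.63. The longer members moved less, by 1.15 times for Rn7sk, 1.17 for Rpph1, 1.21 for Rn7s1 and Rn7s2 and 1.26 for Rmrp. All members together then took 32.2% of TPM in place of 38.5%. The order of the members was the same by either length.

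**Figure D2:**
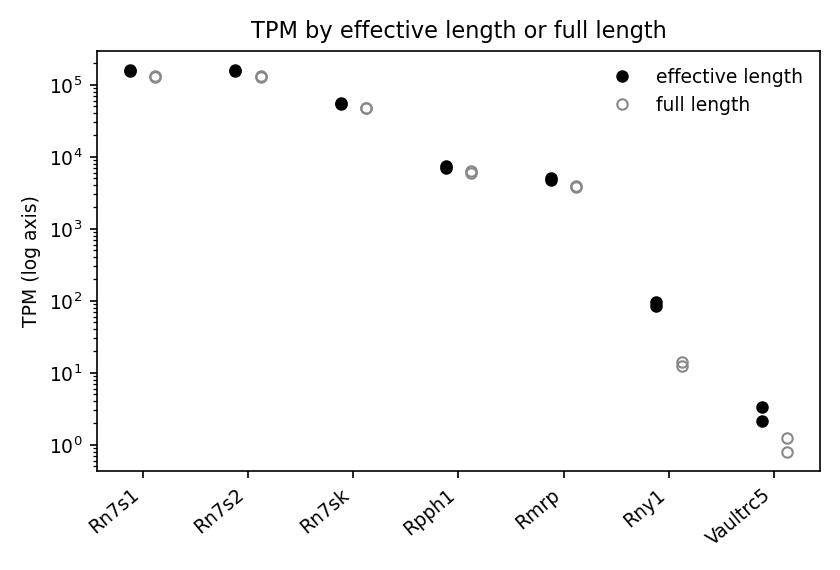
TPM (log axis) of the 7 RNAs with counts, by effective length (filled) or by full length (open), 1 point per library. The offset between filled and open points is small for Rn7s1, Rn7s2, Rn7sk, Rpph1 and Rmrp and largest for Rny1, 91.4 against 13.1 TPM on average.

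Between the libraries, no member was called apart. The rule was an adjusted p under 0.05 and at least a 1.5-fold difference, from a two-sided exact binomial test of the counts, with library sizes scaled by edgeR's TMM method (which uses a trimmed mean of log ratios) and Benjamini-Hochberg adjustment over all genes with a mean of at least 10 counts. It tested 6 of the 8 members, all but Rny3 and Vaultrc5, and called 0 of them, against 336 of 18248 genes (1.84%). By the adjusted p alone, 5 of the 6 passed, all higher in library 2. Of all genes tested, 11.3% passed in either direction and 6.61% passed with the higher value in library 2. Passing by p alone depends on the count, and no share was computed for genes with counts as high as those of the 5. The same 5 passed at an unadjusted p under 0.05. Rn7s1 and Rn7s2 carry the same reads and are 1 measurement, so the 5 stand for 4 RNAs.

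The differences were small. Rpph1 was 1.08-fold higher in library 2 (95% interval 1.06 to 1.10, adjusted p = 1.50e-21, exact binomial). Rmrp was 1.07-fold higher (1.04 to 1.09, adjusted p = 4.94e-08, exact binomial), and Rn7s1 and Rn7s2 1.05-fold (1.05 to 1.06, adjusted p = 1.56e-186, exact binomial). Rn7sk was 1.04-fold higher (1.03 to 1.05, adjusted p = 6.27e-43, exact binomial). With counts this high the test passes differences of a few percent between 2 libraries, and it does not include the variation between animals. For Rn7s1 and Rn7s2 the test was made on each gene's part of the shared reads. Its interval and p leave out the posterior standard deviation, 3.12% of the count in library 1 and 1.70% in library 2. For Rny1 the ratio was 0.899 (0.493 to 1.63, adjusted p = 0.936, exact binomial), and at 24 to 26 counts this interval holds differences of 1.5-fold either way. The median log2 ratio of the 6 members tested was 0.07, the median of all genes tested was 0.00, and 90% of those genes lay between -0.47 and 0.49. All 6 members lay inside that range.

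The higher values in library 2 held for Rn7sk, Rn7s1, Rn7s2, Rmrp and Rpph1 with scaling by DESeq2, by the total of gene counts and by ERCC totals. ERCC scaling gave the largest log2 ratios of these, 0.09 for Rn7sk, 0.11 for Rn7s1 and Rn7s2, 0.13 for Rmrp and 0.15 for Rpph1, against 0.06, 0.07, 0.09 and 0.11 with TMM. The authors' TPM gave smaller ratios, 0.03 for Rn7sk, 0.04 for Rn7s1 and Rn7s2, 0.06 for Rmrp and 0.08 for Rpph1. Among the markers, Ttr, Folr1, Kl (1.30-fold), Prox1 (1.41-fold), Camk2a (1.08-fold) and Slc1a2 (1.04-fold) were also higher in library 2 by adjusted p, and Hbb-bs (0.777-fold) and Hba-a1 (0.797-fold) were lower. The part of the cells they mark in the members' differences was not tested.

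The genes found for protein partners of these RNAs were all expressed as RNA, and none was called apart (0 called in each list, background 1.84%). The lists were chosen by known function. Of the subunits of pol III, 13 of 13 were above 1 TPM in both libraries, with Polr1d, a subunit shared with pol I, highest (26.6 ± 1.49 TPM, SD, n = 2), and Polr3g lowest (1.80 ± 0.481). Of the factors that recruit or restrain pol III, 17 of 17 were above 1 TPM. They were led by Gtf3c1, the large subunit of TFIIIC (44.96 ± 1.83), and Maf1, the repressor of pol III (41.0 ± 0.537), with Snapc5 of the complex that binds snRNA-type promoters lowest (6.71 ± 0.255). The median log2 ratio of library 2 over library 1 was -0.04 for both lists.

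No partner of a member was called apart either. For 7SK, the kinase Cdk9 (45.6 ± 1.11 TPM, SD, n = 2) and the cyclin Ccnt2 (29.2 ± 1.65) of P-TEFb were highest and the inhibitor Hexim2 lowest (5.97 ± 0.127), with a median log2 ratio of -0.01 over 7 genes. For 7SL, 10 of 11 symbols listed were found. Srp14, which sits on the Alu domain of the particle, was highest (68.4 ± 2.55), then Srp72 (40.7 ± 1.72), and the receptor subunit Srprb was lowest (8.66 ± 0.247), with a median of -0.05. For RNase P and MRP, Pop5 (42.8 ± 4.70) and Rpp21 (17.4 ± 0.325) were highest and Rpp40 lowest (2.98 ± 0.721), with a median of 0.06 over 11 genes. The Y RNA partners were Ssb, the La protein (56.1 ± 1.28), and Trove2, the Ro60 protein (12.5 ± 0.290). The genes of the vault proteins were low, Mvp at 3.25 ± 0.113, Parp4 at 1.80 ± 0.318 and Tep1 at 1.41 ± 0.573 TPM. All 3 had a higher value in library 2, with a median log2 ratio of 0.16 and Parp4 at 0.31 (adjusted p = 0.162, exact binomial), and for the Y RNA partners the median was 0.02. All these levels are of RNA, and protein was not measured. The genes of the protein partners lay between 1.41 and 68.4 TPM. The 5 abundant member genes lay between 4905 TPM for Rmrp and 159026 TPM for each of Rn7s1 and Rn7s2. Summed as 7SL RNA, that pair was at a mean of 318053 TPM. Of the other members, Rny1 was at 91.4 TPM, Vaultrc5 at 2.71 TPM and Rny3 at 0.

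**Figure D3:**
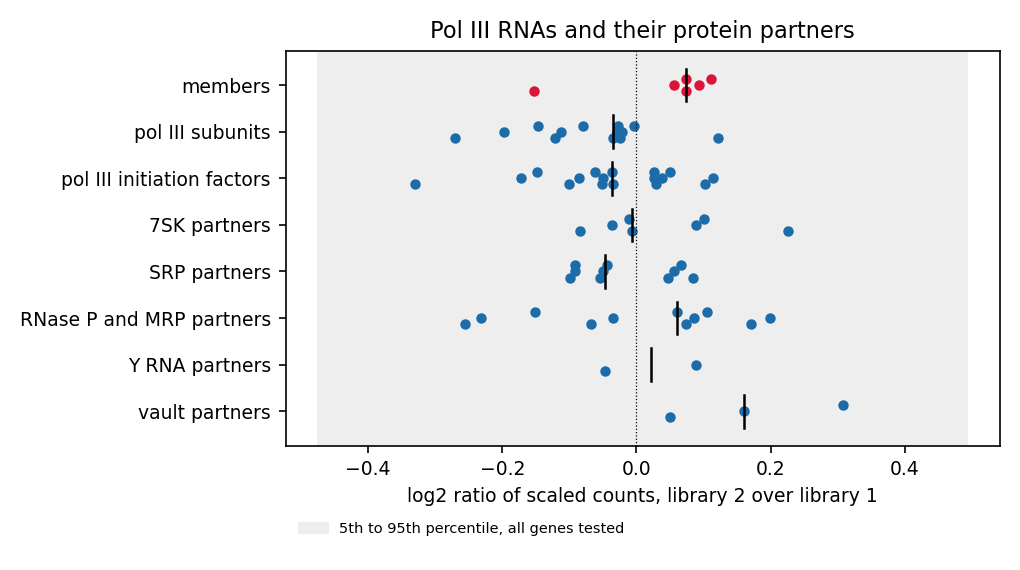
Log2 ratio of TMM-scaled counts, library 2 over library 1, for the members tested and for the genes of each partner list, 1 point per gene with a black line at the median of each list. The grey band is the range from the 5th to the 95th percentile of all genes tested, -0.47 to 0.49, and every point shown lies inside it.

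Each library also had a second transcript table, whose values are an estimated count and a TPM for each transcript. There the members were almost absent. All 8 together held 11 estimated counts in library 1 and 5 in library 2, against 1603403 and 1732783 expected counts in the gene tables. Rn7sk had 1 count in each library. Rn7s1 and Rn7s2 had 1.5 counts each in library 1 and 0.5 each in library 2. Rpph1 had 7 and 3 counts. Rmrp, by either model, was at 0 in both libraries, as were Rny1, Rny3 and Vaultrc5. In TPM, Rn7sk was at 0.870 and 0.857 in the second table and at 54443 and 55499 in the gene table. The share of the members in all TPM was 0.00103% and 0.000455% in the second table.

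All 7 members with at least 1 TPM in either table were at least 2-fold higher in the gene table in both libraries, against 559 of 18779 genes (2.98%). By the mean of both libraries, all but Rpph1 reached 1 TPM in the gene table alone, so this count is a description. Among genes whose longest transcript is no longer than Rn7sk, 331 bases, 330 of 434 (76%) were higher in the gene table by the same rule. The median log2 ratio, gene table over second table with 0.01 TPM added, was 15.94 for the 7 members, 8.01 for those short genes and -0.80 for genes with a longer transcript. Over all 18779 genes it was -0.79, and 4521 genes were at least 2-fold higher in the second table.

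By length the tables came together gradually. Over transcripts other than the members, the second table held 0% of the first tables' counts in both libraries from 101 to 250 bases, 0.395% and 0.307% from 251 to 300 bases, and 10.7% and 5.75% from 301 to 350 bases. It held 19.9% and 19.2% from 351 to 400 bases, 46.6% and 44.6% from 401 to 500 bases, and 87.2% and 85.8% from 501 to 700 bases. Above 2000 bases it held more than the first tables, 112% and 111% from 2001 to 5000 bases. Of other transcripts with at least 500 counts and at most 331 bases, 31 of 32 in library 1 and 30 of 33 in library 2 were at 0 in the second table. Among spike-ins with at least 10 counts, the shortest, of 274 bases, held 14 and 20 counts in the gene table and 0 in the second. ERCC RNAs of 501 to 700 bases held 47.4% and 47.2% of their first-table counts, and those over 700 bases 78.5% and 77.1%. The effective length in the second table was 339.1 and 342.1 bases below the length for long transcripts, more than the whole length of any member. Whether this setting, the kind of alignment or another step set the members' counts there was not tested.

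**Figure D4:**
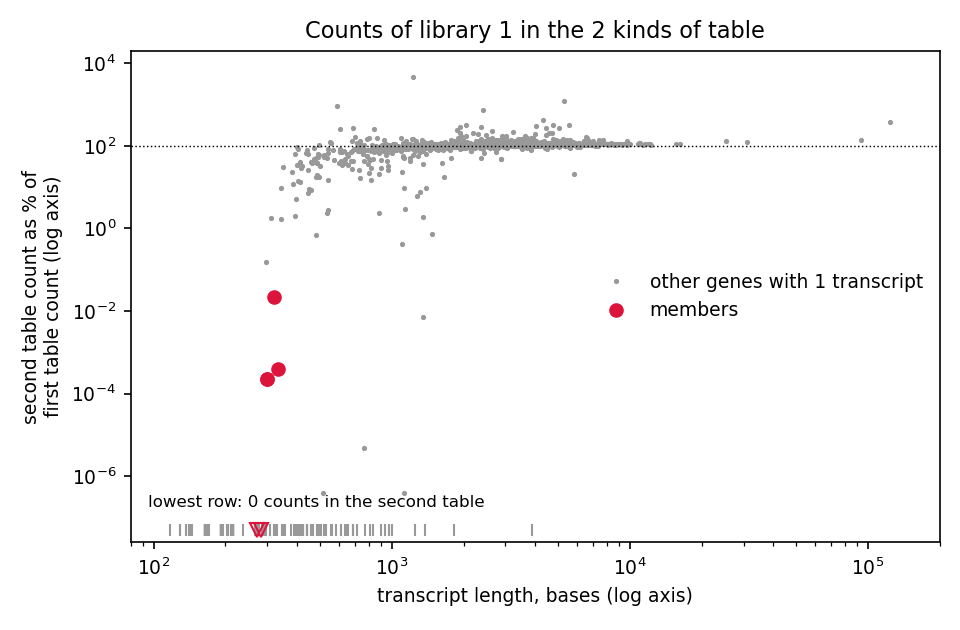
Count in the second table as a percent of the count in the first transcript table for library 1 (log axis), against transcript length in bases (log axis), for genes with 1 transcript and at least 100 counts. Members are red, with the 2 Rmrp models as open triangles at 0 and Rn7s1 with Rn7s2 at the same place, and most other genes of their length are also at or near 0, while most longer genes lie near 100% and some are far from it or at 0.

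By count, the miscellaneous RNA class of the annotation was almost wholly made of Rn7s1, Rn7s2 and Rn7sk. Of 562 entries in this class, the 6 member entries held 99.96% of the counts in both libraries. Rny1, Rny3 and Vaultrc5 are among these 6 and added at most 26 counts each in either library. In the whole class, 80 entries in library 1 and 93 in library 2 had any count. The GC content of the member transcripts ran from 43.8% in Rny1 to 67.1% in Rpph1, where the median of annotated transcripts of at most 331 bases was 47.5%. The 5 abundant members had a GC content of 58.0% or more, and Rny1, Rny3 and Vaultrc5 had 43.8%, 45.1% and 53.8%. The members low by count were also the shortest, so GC content and length cannot be told apart over 9 transcripts.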

How the data were processed

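Total RNA-seq of 2 hippocampus libraries of 1 group was used. For each library the authors deposited a gene table with an expected count, a TPM and a posterior standard deviation of the count, in columns named as RSEM names them, per the file headers. A transcript table of the same kind came with it. The second transcript table, in columns named as kallisto names them per the file headers, gives the authors' estimated count and TPM. The deposited file descriptions name mm10 and GENCODE M21. For the aligner, the program versions and the strand setting, these were not given in the sources used here.

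Gene identifiers of 1 symbol were summed. Rows of ERCC and other entries that name no mouse gene, 0.421% and 0.408% of counts, stayed out of tests. Expected counts were rounded before tests. TMM in edgeR 4.0.16 (R 4.3.3) gave a scaling ratio of library 2 to library 1 of 1.03. Genes with a mean count of at least 10 were compared by a two-sided exact binomial test (SciPy 1.17.1), and p-values were adjusted over all of them by the Benjamini-Hochberg method. Folds had 0.5 added to scaled counts. DESeq2 1.42.0 size factors were an alternative. With 1 group and 2 libraries no replicate-based test was possible. On simulated data, 83.3% of 192 genes changed by 2-fold were called, with 3 unchanged genes called of 18246 tested. These counts were drawn with Poisson error only, around 1 profile shared by both libraries and with the size ratio given. The simulation therefore does not give the rate of false calls in the real libraries. Tables were compared on TPM summed by gene, with 0.01 added, over genes with at least 1 TPM. Transcript likeness came from BLAST 2.17.0 on the GENCODE M21 transcripts. The libraries carried no molecular identifiers in the tables, so counting intervals treat PCR copies as separate molecules.

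The members and lists were chosen with earlier results of these data known. The genes named are all members, for each partner list the 2 highest and the lowest by mean TPM and any called apart, genes that overlap a member, and near copies of a member at 90% identity over 80% of it; Rprl3 was named after its counts were seen. Some of these genes and sequences are not reported here. Alternatives were scaling, count minimum, fold minimum, length, table and leaving out a library.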

Additional observations from a re-analysis of the deposited data

How the results depend on the processing

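The members called apart stayed at 0 with DESeq2, total-count or ERCC scaling, with no or a 100-count minimum and at 2-fold, and became 5 by adjusted p alone; with the second tables' counts no member could be tested. The genes called apart, 336, became 108 with a mean of at least 100 counts, 2062 by adjusted p alone, 179 at 2-fold and 215 without genes that share reads. The members' share of TPM, 38.5%, was 32.2% by full length, 57.6% by the second table's effective lengths and 0.000743% in the second table, and ran from 38.0% to 39.1% leaving out a library. The count of members apart between tables was 7 in all 7 alternatives, which says nothing of stability, since the members' log2 differences, 7.73 to 18.9, are far past any fold minimum tried. Log2 ratios between libraries reversed only in TPM of the second table, at 0.5 to 7 counts: -0.022 for Rn7sk, -1.61 for Rn7s1, -1.61 for Rn7s2 and -1.25 for Rpph1. Leaving out a library ends any test between libraries. No paired analysis was possible because there was 1 group. The limits are 2 libraries, identical or nested sequences, and counts of at most 26 for Rny1, Rny3 and Vaultrc5; the causes of these differences were not tested.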

Other observations

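Other pol III RNAs were also read for their levels. Bc1, a neuronal RNA that acts in translation in dendrites, held 284 counts in library 1 and 322 in library 2, and 208 ± 11.5 TPM (SD, n = 2). It was not called apart between the libraries, and it was at 0 in the second table. The entry named Rnu6, the U6 RNA of the spliceosome, held 0 counts in both libraries. Of 180 entries of 5S ribosomal RNA, 1 had 2 counts in library 1 and none had any in library 2. These counts are not read as absence from the tissue. How well the libraries and the counting captured such short RNAs was not tested. The spike-in set was also of a kind for libraries with ribosomal RNA reduced.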
